A study of Mus musculus with 34 samples.

Results

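The late kidney explants of this series came from 2 media, and 4 of its 34 RNA-seq samples belong to them. The 2 samples collected at day (D) 19 in the medium named v1 were compared with the 2 collected at D17 in the medium named v0, over all genes. Each sample was placed in its group by its label. Explants are mouse kidneys taken at embryonic stage E12.5 and kept in culture, and all 4 carried the Hoxb7-venus reporter, in which the Hoxb7 promoter drives a fluorescent protein in the ureteric bud and its collecting duct progeny. The labels call both media stage-based, so their makeup may change with the day, and no source used here gives that makeup. Medium and day differed together in the comparison, so their parts cannot be told apart. Explants at D13 in v1 (2 samples) were therefore set beside the main results, as their own values or in a contrast that gave v1 a level at day 17 on a straight line, on the log2 scale, between D13 and D19. Both contrasts use the same v0 and D19 v1 samples, so their values stand side by side and are not independent of each other.

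A developing kidney grows from a few interacting populations. Nephron progenitors of the cap mesenchyme renew themselves and give rise to podocytes and to the proximal, loop and distal tubule. The ureteric tip branches into the collecting ducts, and stromal progenitors yield interstitial, mural and smooth muscle cells. Retinoic acid made by the stroma acts through nuclear receptors and keeps the ureteric tip receptive to growth factors, and the enzymes of the Cyp26 family degrade it.

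Values are the deposited normalised signal per gene. Log2 changes were fitted to log2(signal + 0.962) and are given ± SE as D19 v1 minus D17 v0. They understate the change of genes near or under that pseudocount. A gene is said to have risen or fallen, or to be called, where the limma p-value adjusted over all 19264 genes tested was under 0.05 and the log2 change was at least 1 in size. The implied depth of the 4 libraries was 15248741 to 26805624 steps, a step being the lowest value of a library. The log2 values of the replicates correlated at 0.9859 in D17 v0 and at 0.9929 in D19 v1. No label says that replicates came from separate animals or cultures, so p-values measure only the spread between samples. The libraries of the compared groups also differed in the transcripts that mark sex, which were looked at after their values were seen. Xist, expressed from the inactive X chromosome of female cells, stood at 1250 in D19 v1 replicate 1 and at 0.552, 0.455 and 0.0517 in D17 v0 replicates 1 and 2 and D19 v1 replicate 2. Ddx3y, a gene of the Y chromosome, stood at 0.0362 in that same library and at 83.1, 92.1 and 105 in the other three. D19 v1 replicate 1 thus stands apart in sex markers, and counts without it are given beside the gene groups where they differ. The 11 kidney identity genes were present in all 4 libraries, each at 15.1 or more, and none was called in either direction. Cdh16, the kidney-specific cadherin, stood at 495 and 411 in D17 v0 and at 615 and 586 in D19 v1.

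Of the 19264 genes tested, 1049 (5.45%) differed between the late explants, 506 (2.63%) higher and 543 (2.82%) lower in D19 v1. The median log2 change over all genes was 0.03. With 2 libraries a group, both libraries of 1 group lay beyond both of the other in 62.5% of all genes tested, 35.4% with D19 v1 higher and 27.1% with it lower, so groups that do not overlap are common here. With library totals set equal in place of the authors' scaling, 405 genes were higher and 652 lower, so the share of calls that were higher moved from 48.2% to 38.3%. In the contrast weighted to day 17, 795 genes (4.13%) were called, 355 (1.84%) higher and 440 (2.28%) lower in v1.

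**Figure D1:**
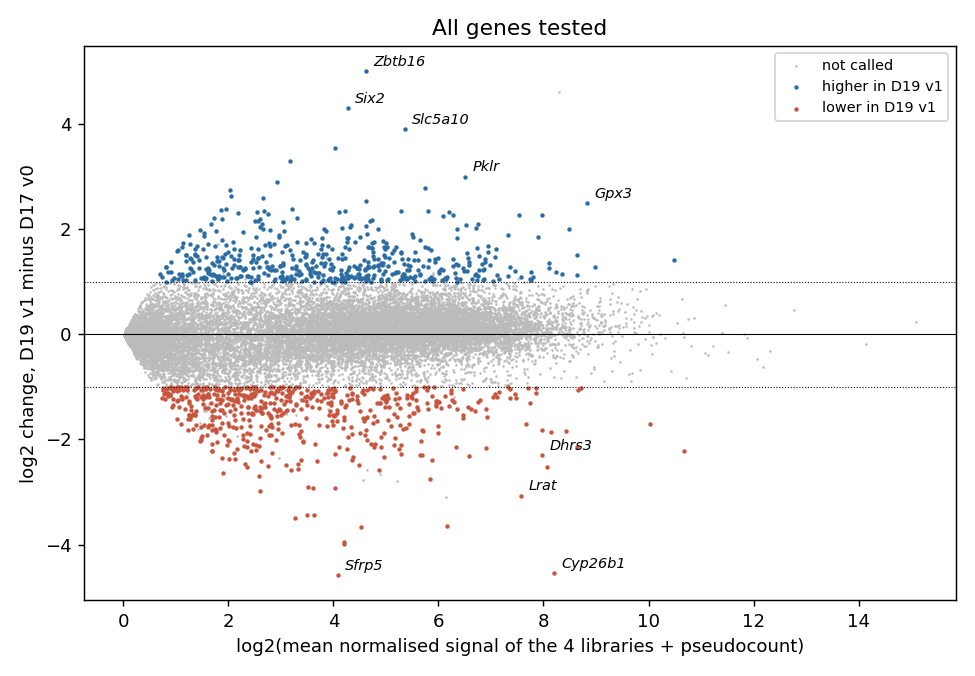
Each point is 1 of the 19264 genes tested, with the log2 of its mean signal over the 4 libraries on the horizontal axis and its log2 change (D19 v1 minus D17 v0) on the vertical axis. The 506 blue points were called higher and the 543 red points lower in D19 v1, dotted lines mark a log2 change of 1 in size, and Zbtb16 (5.00) and Sfrp5 (-4.58) lie at the ends of the called range.

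Genes of retinoic acid handling were lower in D19 v1, and Cyp26b1 had the second largest fall of all genes called, after Sfrp5. Of 14 genes of the retinoic acid list, all tested, 7 fell (50% against 2.82% of all genes) and 1 rose, and their median log2 change was -0.66. The count of falls was 7 also without each of the 4 libraries in turn. In the contrast weighted to day 17, 5 fell and 1 rose.

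The enzymes that remove retinoic acid fell most. Cyp26b1 (ENSMUSG00000063415.13, chromosome 6, 84548396 to 84570891) stood at 520 and 602 in D17 v0 and at 20.5 and 26.2 in D19 v1. The groups lay far apart, and the mean was 24.1-fold lower in D19 v1 (log2 change -4.54 ± 0.16, adjusted p = 1.69e-16). Cyp26a1 (ENSMUSG00000024987.7, chromosome 19, 37686246 to 37689985), its close relative, stood at 38.9 and 28.1 in D17 v0 and at 1.01 and 1.50 in D19 v1 (-3.95 ± 0.29, adjusted p = 1.22e-10). These positions are those of the deposited table, whose gene starts match the mm10 annotation for only 473 of 22685 shared genes; the submitters' processing notes name mm39 beside mm10.

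The genes of retinoid storage and reduction moved the same way. Lrat, which esterifies retinol for storage, stood at 332 and 353 in D17 v0 and at 36.6 and 43.5 in D19 v1 (-3.07 ± 0.25, adjusted p = 1.73e-09). Dhrs3, which reduces retinal back to retinol, stood at 419 and 415 and at 79.9 and 88.2 (-2.30 ± 0.12, adjusted p = 9.57e-14). The receptor gene Rarb and the retinol uptake gene Stra6 fell by 1.50 and 1.32 on the log2 scale. Crabp1, a cytoplasmic retinoic acid binding protein that also marks embryonic stroma, was the exception and rose from 1.85 and 3.36 to 17.3 and 13.1 (2.20 ± 0.23, adjusted p = 7.03e-08). Of the genes that make retinoic acid, Aldh1a2 stood at 90.6 and 72.6 in D17 v0 and at 121 and 115 in D19 v1 (0.54 ± 0.11) and was not called. The receptor gene Rara (0.73 ± 0.12) was not called either. The value of Aldh1a1, another synthesis gene of the list, is not given here, so synthesis as a whole is not described.

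The promoters of the retinoic acid genes were searched because retinoic acid receptors bind paired half-sites spaced by 5 bases, the motif called DR5. A half-site was any of AGGTCA or AGTTCA or GGGTCA or GGTTCA, on both strands, within the 300 bases from 250 before to 50 after the gene start (RefSeq, build GRCm38.p6). Of the 14 genes, 11 had a promoter entry, and 2 held the motif, Cyp26a1 and Rarb. The motif was in 0.0974% of all 32851 promoter entries. That share is per entry, and some genes have several, so it is not a share of genes. The 100 bases before each start are shown on the strand of the gene, with the motif in capitals, at chr19:37697708-37697807 (plus strand) and chr14:16575477-16575576 (minus strand).
Cyp26a1: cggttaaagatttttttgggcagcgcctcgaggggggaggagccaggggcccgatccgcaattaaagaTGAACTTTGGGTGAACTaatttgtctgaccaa
Rarb: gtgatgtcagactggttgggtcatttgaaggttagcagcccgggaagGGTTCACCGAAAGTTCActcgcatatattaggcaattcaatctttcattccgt
The motif lies 32 to 16 bases before the start of Cyp26a1, read on the opposite strand, and 53 to 37 bases before that of Rarb. It was 1 of 8 motifs searched, after the values were seen, over 40 genes that this text or its lists name, 32 of them with a promoter entry. The other 7 were found as follows. DR2 (spacing of 2 bases, 0.268% of all promoters), the serum response factor CArG box (CC, then 6 of A or T, then GG, 1.63%) and the HNF1 site (GTTAAT and ATTA spaced by 1 base, 0.14%) were in none of these genes. The glucocorticoid response element (0.14%) was in Sgk1, the HNF4 site (0.651%) in Gdf15 and Pklr, and the cAMP response element (TGAC followed directly by GTCA, 1.79%) in Areg. The interferon element (GAAA repeated after 2 bases, 3.44%) was in the 6 genes Dhrs3, Gbp2, Ifit1, Ifit3, Rsad2 and Sgk1. The DR5 and HNF4 patterns share half-sites and can overlap in letters. A match describes the letters and shows no binding.

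Within v1, Cyp26b1 and Dhrs3 were high until D13. Of the 14 retinoic acid genes, 8 fell, 1 rose and 5 did neither between D13 and D19 in v1. Cyp26b1 averaged 511 at D3, 803 at D7 and 816 at D13 in v1, above or near the 561 of D17 v0, and 23.3 at D19. Dhrs3 averaged 265, 463, 458 and 84.1 over the same days, beside 417 in D17 v0. Explants at D19 in the medium named v2 averaged 13.9 for Cyp26b1 and 74.0 for Dhrs3. Between D13 and D19 in v1, Cyp26b1 fell by 5.08 ± 0.16 on the log2 scale (adjusted p = 9.82e-18), and 1021 genes in all (5.30%) were called in that comparison. Weighted to day 17, the v1 level of Cyp26b1 was below D17 v0 by a log2 change of -2.85 ± 0.14 (adjusted p = 3.99e-13). That value assumes a steady change over the 6 days, and no v1 sample between D13 and D19 was analysed here.

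**Figure D2:**
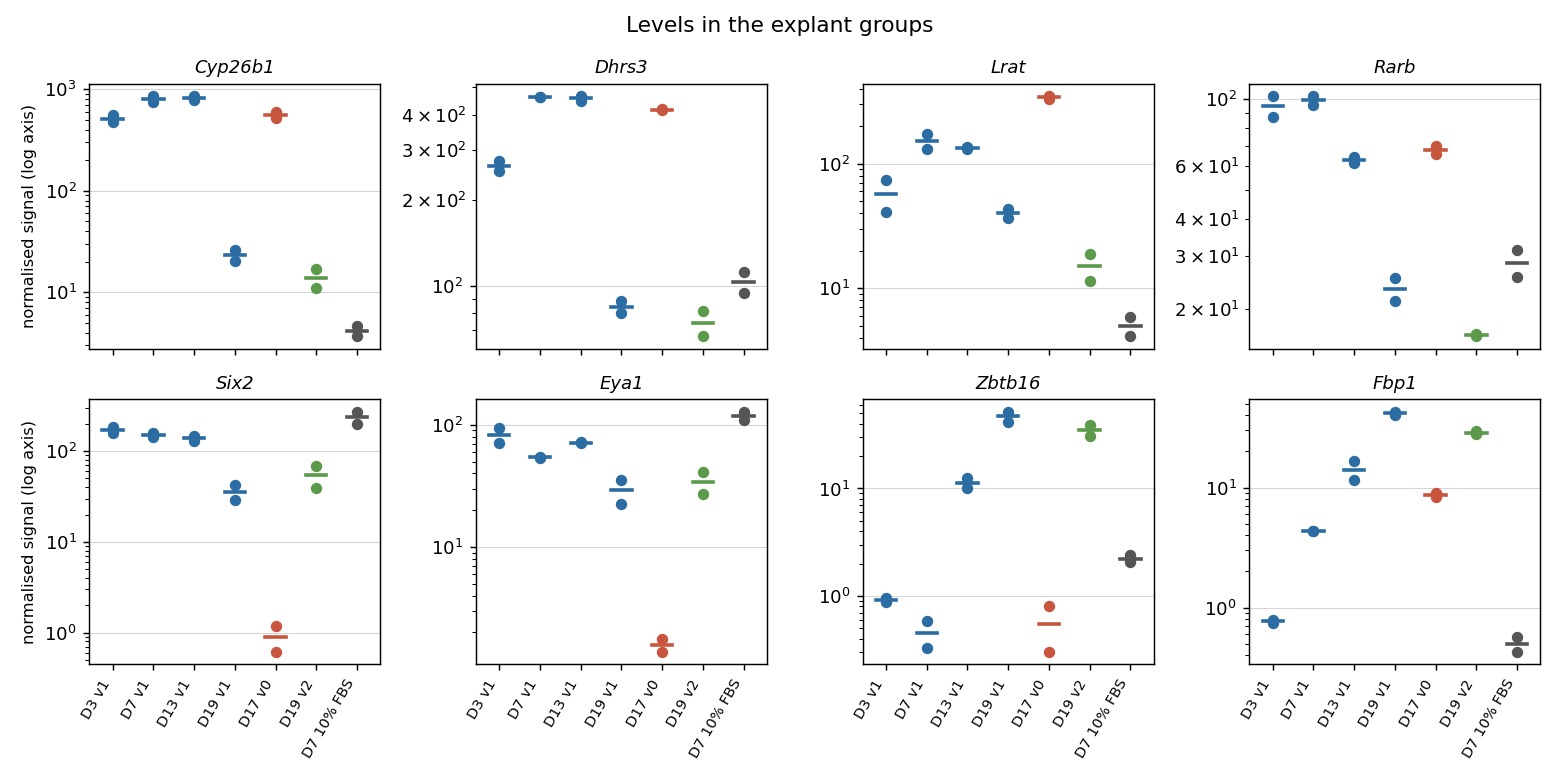
Normalised signal (log axis) of 8 genes in the 7 explant groups, with 1 point per sample and a line at the mean of the 2 samples. Cyp26b1, Dhrs3 and Rarb were high in v1 until D13 and low at D19, Six2 and Eya1 were lowest in D17 v0, and Zbtb16 was high at D19 in both v1 and v2.

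Nephron progenitor genes were higher in D19 v1 than in D17 v0, where Six2, Eya1, Cited1 and Gdnf were near the low end of the scale. Of 14 genes of the list, all tested, 8 rose (57.1% against 2.63% of all genes) and 0 fell, with a median log2 change of 1.42. In a bulk sample, fewer cells of a type and less RNA per cell cannot be told apart. The count was 7 without D17 v0 replicate 1 or D19 v1 replicate 1 and 8 without either of the other two libraries. It was 8 in the contrast weighted to day 17, with a median of 1.57, and 5 with a pseudocount 5 times larger.

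Six2, the transcription factor that holds cap mesenchyme in the progenitor state (ENSMUSG00000024134.12, chromosome 17, 85991705 to 85995703), stood at 1.19 and 0.607 in D17 v0 and at 42.5 and 28.9 in D19 v1. Its mean was 39.7-fold higher in D19 v1 (log2 change 4.29 ± 0.25, adjusted p = 9.70e-11). Eya1, its cofactor, stood at 1.37 and 1.78 and at 35.6 and 22.6 (3.53 ± 0.24, adjusted p = 1.05e-09). Cited1, which marks the least committed progenitors, stood at 0.717 and 1.25 and at 10.2 and 7.45 (2.33 ± 0.34, adjusted p = 2.23e-05). No D17 v0 library reached either D19 v1 library in these genes, as in 35.4% of all genes tested. Uncx, a homeobox gene, rose by 2.25 ± 0.26 and Gdnf, the growth factor through which the cap mesenchyme drives ureteric branching, by 2.09 ± 0.24. The broader metanephric mesenchyme genes Sall1 (0.68 ± 0.13) and Osr1 (0.58) were not called. Six2 averaged 172, 152 and 139 at D3, D7 and D13 in v1, 54.1 at D19 in v2 and 74.4 in kidneys at birth, and between D13 and D19 in v1 it fell by 1.96 ± 0.25 on the log2 scale. Its D19 v1 level thus lay between those of D13 v1 and D17 v0.

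Genes downstream in the early nephron and at the ureteric tip were called in few members. The median log2 change of the early nephron list was 0.61, with 11 of 12 genes above 0. That of the tip list was -0.03, with 5 of 10 above 0. Weighted to day 17, these medians were 0.6 and 0.39. Rises made up 16.7% of the early nephron list and 20% of the tip list, against 2.63% of all genes. Falls made up 10% of the tip list, against 2.82% of all genes. Fgf8 (1.53 ± 0.24) and Sox9 (1.05 ± 0.15) rose among 12 early nephron genes, of which 4 rose without D17 v0 replicate 1. Among 10 ureteric tip genes, the FGF and GDNF target Etv4 (1.49 ± 0.21) and the tip ligand Wnt11 (1.26 ± 0.22) rose, the latter at 0.98 without D17 v0 replicate 2. Ret, the GDNF receptor of the tip, fell from 20.2 and 26.5 to 10.2 and 5.64 (-1.49 ± 0.22, adjusted p = 1.64e-05). Weighted to day 17, the change of Ret was -0.30 and it was not called, since it averaged 101 at D13 in v1. Of 16 genes of FGF, EGF and MAPK feedback, 4 rose and 1 fell, with a median of 0.68, and 5 rose without D19 v1 replicate 1. With all 4 libraries, 25% of that list rose and 6.25% fell. Areg, a ligand of the EGF receptor, stood at 0.657 and 0.728 in D17 v0 and at 17.6 and 13.4 in D19 v1 (3.30 ± 0.23, adjusted p = 8.61e-11). The feedback genes Spry4 (1.30 ± 0.18) and Dusp6 (1.05 ± 0.13) rose, and Dusp6 missed the fold threshold when totals were set equal, without D17 v0 replicate 2 (0.91) and without D19 v1 replicate 2 (0.97).

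Glucocorticoid-responsive genes were higher in D19 v1, and Zbtb16 had the largest rise of all genes called. Zbtb16 (ENSMUSG00000066687.6, chromosome 9, 48565597 to 48747523), a zinc finger repressor induced by glucocorticoids in many cells, stood at 0.299 and 0.809 in D17 v0 and at 42.0 and 52.0 in D19 v1. Its mean was 84.9-fold higher in D19 v1 (log2 change 5.00 ± 0.24, adjusted p = 2.85e-14). Fkbp5, a chaperone of the glucocorticoid receptor, stood at 21.7 and 25.3 and at 107 and 136 (2.32 ± 0.16, adjusted p = 1.13e-10). The clock gene Per1 (1.38 ± 0.15) and the kinase gene Sgk1 (1.37 ± 0.19) also rose. These were the 4 called of 12 tested (33.3% against 2.63% of all genes), none fell, and the median was 0.69. The count was 6 without D19 v1 replicate 1 or without D17 v0 replicate 2. Klf9 (0.97 ± 0.14) and Tsc22d3 (0.93 ± 0.14) lay just under the fold threshold, and the receptor gene Nr3c1 was at -0.25 ± 0.13. The same 4 were called in the contrast weighted to day 17, where Zbtb16 changed by 4.34 ± 0.21. Zbtb16 averaged 0.916, 0.456 and 11.3 at D3, D7 and D13 in v1 and 35.0 at D19 in v2.

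Proximal tubule genes were higher in D19 v1 in part of the list. Of 30 genes, 10 rose (33.3% against 2.63% of all genes) and 0 fell, and the median was 0.86. Fbp1, a gluconeogenic enzyme of this segment, stood at 8.30 and 8.94 in D17 v0 and at 40.2 and 42.9 in D19 v1 (2.15 ± 0.20, adjusted p = 1.31e-08). Pck1, the gluconeogenic carboxykinase, stood at 3.70 and 5.95 and at 22.8 and 20.3 (1.99 ± 0.19, adjusted p = 3.07e-08). Spp2 (2.19 ± 0.26) and the fatty acid transporter gene Slc27a2 (1.41 ± 0.21) rose too. The endocytic receptor genes Lrp2 (0.13 ± 0.23) and Cubn (-0.41 ± 0.24) and the regulator gene Hnf4a (0.92 ± 0.51) were not called.

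The proximal tubule count was 3 in the contrast weighted to day 17, with a median of 0.18, and Fbp1 (1.64 ± 0.18), Pck1 (1.47) and Spp2 (1.86 ± 0.23) were the members called there. The summed signal of the 30 genes was 421 and 386 at D13 in v1, 890 and 804 in D17 v0 and 1440 and 1460 in D19 v1. The count was 6 without D19 v1 replicate 1, the library high in Xist, and 6 with totals set equal.

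Genes with large rises outside the lists included several of kidney tubules. Medium and day differed together for these genes too, and their changes weighted to day 17 are not given here. The median of the proximal tubule list moved from 0.86 to 0.18 in that contrast. Slc5a10, a sodium-coupled sugar transporter of the kidney, stood at 3.11 and 5.46 in D17 v0 and at 69.7 and 81.8 in D19 v1 (3.90 ± 0.24, adjusted p = 4.08e-12). Gpx3, the secreted glutathione peroxidase made chiefly by the proximal tubule, stood at 144 and 127 and at 878 and 663 (2.49 ± 0.14, adjusted p = 8.03e-13). Dpep1, a brush border dipeptidase, rose by 2.89 ± 0.22, and Pklr, the liver and red cell pyruvate kinase, by 2.99 ± 0.27. Gdf15, a stress-induced cytokine, rose by 2.78 ± 0.21, Fbln2, a matrix protein, by 2.54 ± 0.26, and Atp2a3, a calcium pump, by 2.35 ± 0.21. Ms4a4d rose by 2.34 ± 0.19 and Sprr2g, a cornified envelope gene with close copies, by 2.34 ± 0.33. Rps10 (2.34 ± 0.42), a ribosomal protein gene with near-identical copies, stood at 10.4 and 27.9 in D17 v0 and at 83.3 and 98.0 in D19 v1, and reads split between copies make its value uncertain.

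**Figure D3:**
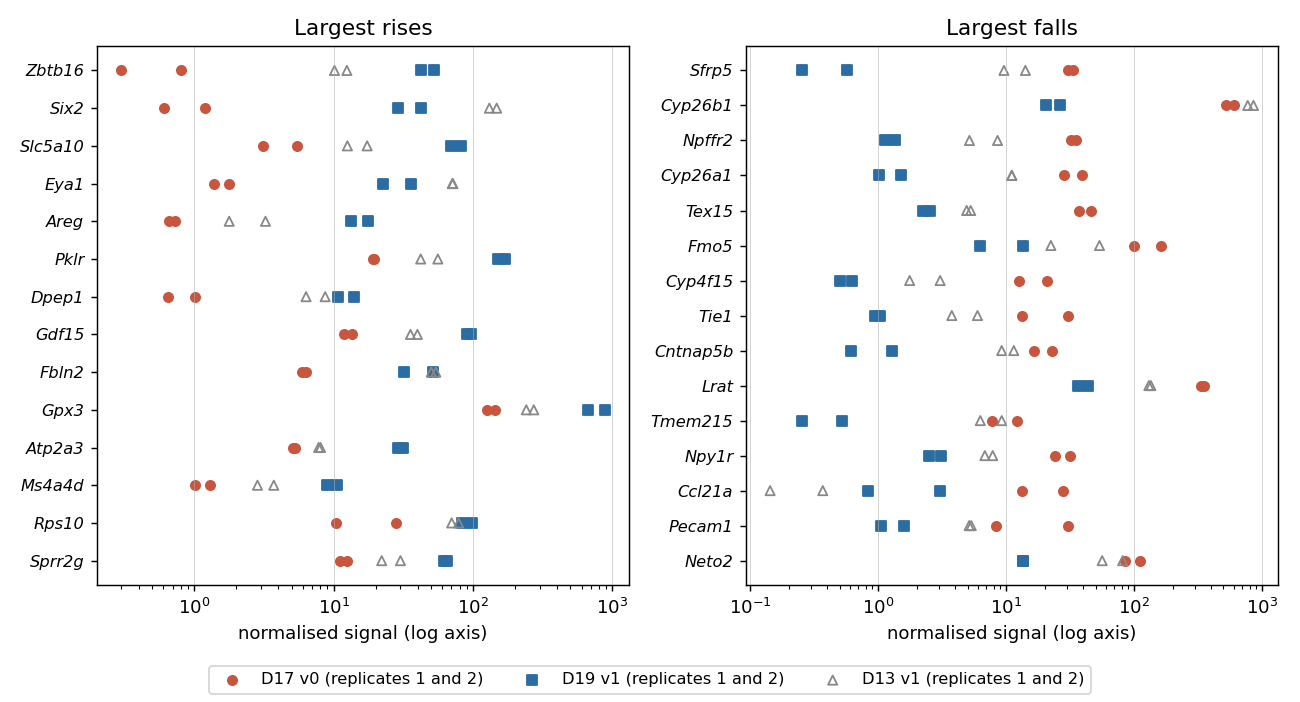
Normalised signal (log axis) of 14 of the 15 genes with the largest rises (left) and the 15 with the largest falls (right), with 1 marker per sample for D17 v0 (red circles), D19 v1 (blue squares) and D13 v1 (grey triangles). The 29 genes shown were picked for their called change between D17 v0 and D19 v1, and D13 v1 lies above D19 v1 for Six2 and Eya1 and above D17 v0 for Cyp26b1.

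The other tubule segments moved in part of their members. Of 12 loop of Henle genes 3 rose (25% against 2.63% of all genes) and 1 fell. Among the rises was Ppp1r1a, a phosphatase inhibitor gene, which stood at 2.57 and 1.09 in D17 v0 and at 6.15 and 4.97 in D19 v1 (1.27 ± 0.21). The tight junction gene Cldn19 fell by 1.37 ± 0.29 on the log2 scale. The count of rises was 1 without D17 v0 replicate 2, where Ppp1r1a was at 0.88 and not called, and 2 without D19 v1 replicate 1 and in the contrast weighted to day 17. Of 12 distal and connecting tubule genes 2 rose (16.7%). Klk1, the kallikrein of the connecting tubule, stood at 1 step in both D17 v0 libraries and at 1.05 and 2.02 in D19 v1, at least 10.2-fold higher against a floor of 3 steps per library. The salt cotransporter gene Slc12a3 rose by 1.10 ± 0.18, and without D19 v1 replicate 2 neither was called, at 0.99 for Klk1 and 0.91 for Slc12a3. Both stayed low, with 23.9 and 130 as their means in kidneys at birth. Of 15 principal cell and collecting duct genes, 4 rose (26.7%) and 2 fell (13.3% against 2.82% of all genes). Aqp2, the vasopressin-regulated water channel, stood at 11.1 and 7.04 and at 37.2 and 31.2 (1.84 ± 0.27, adjusted p = 3.21e-05). Scnn1a, a subunit of the epithelial sodium channel, rose by 1.82 ± 0.15, whereas the transcription factor gene Elf5 (-1.39 ± 0.23) and the basolateral water channel gene Aqp3 (-1.29 ± 0.25) fell, Aqp3 at -0.84 and not called without D17 v0 replicate 2. Weighted to day 17, 4 rose and 1 fell, with Elf5 at -0.80. Of the intercalated cell list 8.33% rose and 8.33% fell, against 2.63% and 2.82% of all genes. Among 12 intercalated cell genes, Car12 (1.27 ± 0.17) rose and Slc4a9 (-1.23 ± 0.38) fell, but Slc4a9 was at -0.46 without D17 v0 replicate 1, where 4 of the 12 rose. Of these 12 genes 2 rose without D19 v1 replicate 1, and none was called in either direction in the contrast weighted to day 17.

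None of 16 podocyte genes was called in either direction. Npnt stood at 716 and 645 in D17 v0 and at 1022 and 1123 in D19 v1 (0.66 ± 0.14), and Podxl at 729 and 487 and at 304 and 487 (-0.63 ± 0.32). The slit diaphragm gene Nphs1 (-0.92 ± 0.23) lay near the threshold, and without D17 v0 replicate 2 the list held 4 calls, all lower, and without D19 v1 replicate 2 it held 2. In the contrast weighted to day 17, 4 of the 16 fell, where 2.28% of all genes did.

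**Figure D4:**
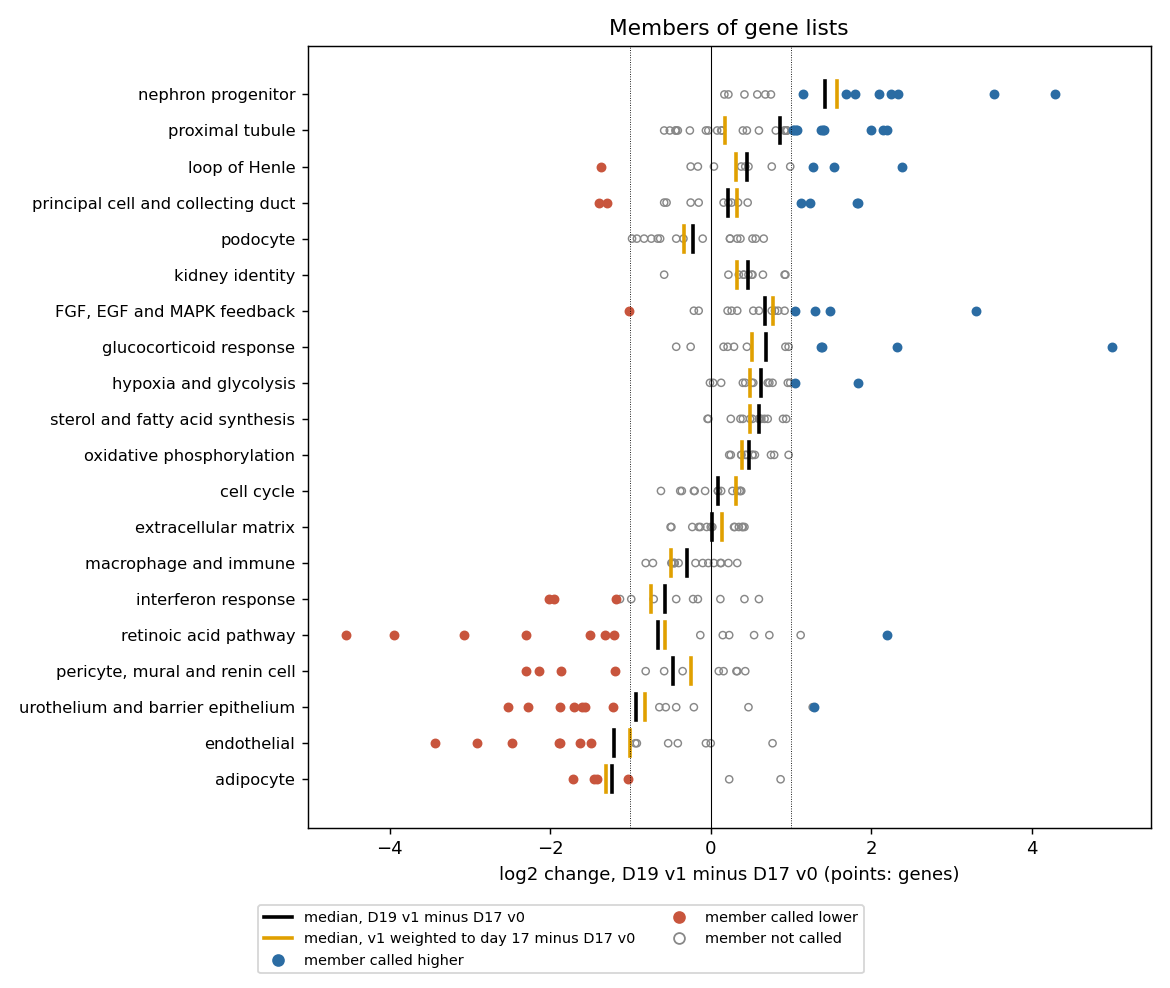
Log2 changes (D19 v1 minus D17 v0) of the tested members of 20 gene lists, 1 point per gene, filled blue where called higher, filled red where called lower and open where not called. Black bars mark each list's median and amber bars its median in the contrast weighted to day 17: the proximal tubule median moves from 0.86 to 0.18 and the nephron progenitor median from 1.42 to 1.57.

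Smooth muscle genes were lower in D19 v1. Of 12 pericyte, mural and renin cell genes 4 fell (33.3% against 2.82% of all genes), all of the contractile apparatus. Myh11, smooth muscle myosin (ENSMUSG00000018830.11, chromosome 16, 14012399 to 14109237), stood at 493 and 811 in D17 v0 and at 113 and 180 in D19 v1 (-2.14 ± 0.30, adjusted p = 3.39e-05). Acta2, smooth muscle actin, stood at 332 and 560 and at 97.2 and 144 (-1.86 ± 0.23, adjusted p = 5.46e-06), and Cnn1 (-2.30 ± 0.37) and Tagln (-1.19 ± 0.29) fell as well. The pericyte receptor gene Pdgfrb (0.32 ± 0.18) and the renin gene Ren1 (0.43 ± 0.39) were not called. At D13 in v1 Myh11 averaged 145 and Acta2 120, and the change of Myh11 from D13 to D19 in v1 was -0.02 ± 0.30. Tagln was at -0.77 without D17 v0 replicate 2 and at -0.93 without D19 v1 replicate 1, not called in either. The count of falls was 5 without D17 v0 replicate 1 or D19 v1 replicate 2, and 3 without D17 v0 replicate 2 or D19 v1 replicate 1. It was 5 in the contrast weighted to day 17. It was 2 in a fit of the 4 samples alone, where Cnn1 had an adjusted p of 0.0617 and Tagln of 0.111 in limma.

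Stromal genes split. Of 14 embryonic stroma genes 5 rose (35.7% against 2.63% of all genes) and 1 fell (7.14% against 2.82%), with a median of 0.27. Besides Crabp1, Fibin (2.02 ± 0.32), the Notch-family ligand gene Dlk1 (1.83 ± 0.32), the secreted matricellular gene Smoc2 (1.59 ± 0.18) and the enkephalin gene Penk (1.27 ± 0.23) rose. Tbx18, a transcription factor of ureteric mesenchyme, fell from 48.2 and 67.6 to 12.45 and 22.4 (-1.72 ± 0.34, adjusted p = 7.08e-04). Tbx18 averaged 16.3 and Dlk1 190 at D13 in v1, and 5 of the 14 rose and 2 fell in the contrast weighted to day 17. None of 14 extracellular matrix genes was called, and Col1a1 stood at 1304 and 1803 in D17 v0 and at 1652 and 2115 in D19 v1 (0.29 ± 0.22).

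Urothelial genes were lower in D19 v1. Of 14 genes of urothelium and barrier epithelium 7 fell (50% against 2.82% of all genes) and 1 rose (7.14% against 2.63%). Sprr1a, a cornified envelope precursor, stood at 383 and 531 in D17 v0 and at 58.6 and 101 in D19 v1 (-2.53 ± 0.37, adjusted p = 4.78e-05). The uroplakin genes Upk1b (-2.28 ± 0.38), Upk3a (-1.88 ± 0.36) and Upk2 (-1.70 ± 0.31), which form the plaques of the urothelial surface, also fell. Trp63, the basal cell regulator, fell by 1.56 ± 0.26 on the log2 scale. The gene that rose, Sprr2f, has near-identical copies. The count of falls was 6 to 8 without 1 library and 4 in a fit of the 4 samples alone. It was 6 without D19 v1 replicate 1, where 2 rose. Sprr1a stood at 227 and 222 at D13 in v1, between the groups compared, and the contrast weighted to day 17 held 6 falls and a median of -0.82 beside -0.93.

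Endothelial genes were lower in D19 v1, by an amount that rested on which D17 v0 library was used. Of 14 genes 7 fell (50% against 2.82% of all genes) and 0 rose, with a median of -1.21. Pecam1, an endothelial adhesion molecule (ENSMUSG00000020717.20, chromosome 11, 106545043 to 106641455), stood at 8.30 and 30.6 in D17 v0 and at 1.05 and 1.60 in D19 v1 (-2.91 ± 0.33, adjusted p = 4.98e-07). Tie1, an endothelial receptor kinase, stood at 13.4 and 30.2 and at 0.940 and 1.04 (-3.44 ± 0.25, adjusted p = 1.51e-10). Kdr, the main VEGF receptor, stood at 27.9 and 41.4 and at 7.84 and 9.26 (-1.88 ± 0.16, adjusted p = 4.65e-09). The groups did not overlap in these genes, as in 27.1% of all genes tested with D19 v1 lower. Emcn (-0.06 ± 0.17) was not called. The summed signal of the list was 125 and 280 in the D17 v0 libraries and 83.0 and 94.1 in those of D19 v1. The list held 11 falls and a median of -2.20 without D17 v0 replicate 1, and 4 falls and a median of -0.45 without D17 v0 replicate 2. It held 6 falls and a median of -0.88 without D19 v1 replicate 1, and 4 falls in the 4 samples alone and with a pseudocount 5 times larger. Weighted to day 17 it held 7 falls and a median of -1.0, and Pecam1 averaged 5.24 at D13 in v1. Pecam1 averaged 129 in kidneys at birth, so all 4 libraries lay below it.

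D17 v0 replicate 2 also held more neuronal transcripts than replicate 1. Nefl, a neurofilament, stood at 1.50 and 29.7 in D17 v0 and at 4.92 and 6.51 in D19 v1, and the summed signal of the 12 neuron and glia genes was 31.9 and 117 in D17 v0 and 56.6 and 47.6 in D19 v1. Elavl4 was the 1 gene called (1.49 ± 0.38, higher), 8.33% of the list against 2.63% of all genes. It was at 0.57 without D17 v0 replicate 1 and at 1.12 without D19 v1 replicate 1, not called in either. The part of the neuronal and endothelial content of these libraries in the other results was not tested.

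Of the immune lists, the interferon response list held calls and the others none. None of 16 macrophage and immune genes or of 7 MHC class II genes was called, with Lyz2 at 247 and 275 in D17 v0 and at 196 and 112 in D19 v1 (-0.81 ± 0.34, and -1.21 and called without D19 v1 replicate 1) and the class II gene H2-Ab1 at 68.9 and 57.3 and at 76.6 and 70.5 (0.22 ± 0.25). The median of the class II list was 0.12, and -0.65 in the contrast weighted to day 17, where none was called either. H2-Ab1 averaged 11.7 at D13 in v1. Of 12 interferon response genes 3 fell (25% against 2.82% of all genes), with a median of -0.57, led by the guanylate binding protein gene Gbp2, which stood at 38.2 and 39.5 and at 10.9 and 7.14 (-2.02 ± 0.28, adjusted p = 7.23e-06). Rsad2 (-1.95 ± 0.30) and Oasl2 (-1.18 ± 0.30) were the others. The list held 6 falls without D17 v0 replicate 2 and 2 without D17 v0 replicate 1, where Oasl2 was at -0.97. Weighted to day 17 it held 4 falls, and Gbp2 averaged 5.41 at D13 in v1. Erythroid genes were near the lowest step, with a summed signal over 10 genes of 1.79 and 0.768 in D17 v0 and 1.05 and 1.82 in D19 v1.

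Genes of the adipocyte list fell in 4 of 6 tested members (66.7% against 2.82% of all genes). The list has 8 genes, and 2 of the 6 tested had a log2 change above 0, up to 0.87. Whether fat cells were fewer was not tested. Pparg, the master regulator of fat cells, stood at 23.8 and 41.2 in D17 v0 and at 9.04 and 12.8 in D19 v1 (-1.46 ± 0.27, adjusted p = 2.20e-04). Fabp4 (-1.72 ± 0.35), Cd36 (-1.42 ± 0.35) and Plin1 (-1.03 ± 0.36) fell too, but Fabp4 and Cd36 are also expressed by endothelial cells and macrophages, and the count was 1 without D17 v0 replicate 2, 2 without D19 v1 replicate 2 or in the 4 samples alone, and 3 without either of the other two libraries. It was 4 in the contrast weighted to day 17, and Pparg averaged 17.9 at D13 in v1. Plin1 was not called without any 1 of the 4 libraries.

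Metabolic and growth lists held few calls. None of 15 sterol and fatty acid synthesis genes was called although their median was 0.60, and Hmgcs1, an early enzyme of sterol synthesis, stood at 271 and 286 in D17 v0 and at 445 and 467 in D19 v1 (0.71 ± 0.11). None of 12 oxidative phosphorylation genes was called, with a median of 0.48. Of 14 hypoxia and glycolysis genes 2 rose (14.3% against 2.63% of all genes). Ndrg1, a hypoxia-induced gene, stood at 109 and 95.0 and at 408 and 333 (1.84 ± 0.13, adjusted p = 9.70e-11), and Pgk1 rose by 1.05 ± 0.15. The count was 4 without D17 v0 replicate 2 or D19 v1 replicate 1 and 1 without either of the other two libraries, where Pgk1 was at 0.89 and 0.96. None of 14 cell cycle genes was called, with Mki67 at 166 and 125 in D17 v0 and at 98.3 and 89.3 in D19 v1 (-0.62 ± 0.13). Of 13 genes of TGF-beta signalling and myofibroblasts, 1 rose (7.69% against 2.63% of all genes) and 2 fell (15.4% against 2.82%). The rise was the growth arrest gene Cdkn1a (1.08 ± 0.14, and 0.97 without D17 v0 replicate 1). The falls were Acta2 (-1.86), given above among the smooth muscle genes, and the ligand gene Tgfb3 (-1.39 ± 0.20). The noncanonical ligand gene Wnt5a (-1.22 ± 0.16) fell among 18 Wnt pathway genes, of which 1 rose (2 without D19 v1 replicate 1), and Bmp2 (-1.08 ± 0.26, and -0.91 without D19 v1 replicate 1) among 13 BMP pathway genes. In the Wnt list 5.56% rose and 5.56% fell, and in the BMP list 7.69% fell, each share being 1 gene. Over all genes 2.63% rose and 2.82% fell. In the contrast weighted to day 17, Pgk1 (0.91), Cdkn1a (0.78), Tgfb3 (-0.99), Wnt5a (-0.95) and Bmp2 (-0.58) did not reach the fold threshold, and Ndrg1 (1.29) did.

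The remaining large falls were of genes outside these groups. Sfrp5, a secreted Wnt inhibitor, stood at 30.4 and 33.1 in D17 v0 and at 0.253 and 0.569 in D19 v1 (-4.58 ± 0.35, adjusted p = 2.71e-10). The neuropeptide receptor genes Npffr2 (-3.99 ± 0.25) and Npy1r (-2.93 ± 0.29) fell, as did the oxidation enzyme genes Fmo5 (-3.64 ± 0.34) and Cyp4f15 (-3.50 ± 0.21). Tex15, known from germ cells, fell from 37.2 and 46.5 to 2.53 and 2.22 (-3.67 ± 0.28). Cntnap5b (-3.43 ± 0.23), Tmem215 (-2.99 ± 0.23) and Neto2 (-2.76 ± 0.33) completed the list with Ccl21a (-2.92 ± 0.40), a chemokine gene with near-identical copies. Each of these 10 genes was also called lower in v1 in the contrast weighted to day 17, with Sfrp5 at -3.51 and Tex15 at -3.39.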

How the data were processed

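Bulk RNA-seq libraries were made by NovoGene from column-extracted RNA, per the labels' protocols. STAR 2.7.8a and Partek, with mm39 and mm10, are named in the submitters' processing notes; no source used here names the counter or strand setting. The authors deposited 1 table of TMM-normalized signal for 23331 genes, per its name; it holds no counts. Between 88.9 and 94.5% of low values (at most 20 steps) lay within 0.1 of a whole number of steps, too few to recover reads. The table held 0 columns of other samples.

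Genes reaching the pseudocount (1 ppm of the median column total, 0.962) in 2 samples were kept. limma 3.58.1 (R 4.3.3) fitted 17 group means to all 34 samples, with trend and robust moderation (17 residual degrees of freedom) and Benjamini-Hochberg adjustment; it was tested on simulated data. The spread is thus pooled over all groups. The day 17 contrast took 2 parts D19 v1 and 1 part D13 v1, over 3. Floors cover counting error only. Replicates of a group were not duplicates (chi-square over degrees of freedom 15.5 and 9.47).

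Genes named are the 15 called rises and 15 called falls of largest size, if the higher group averaged 10 pseudocounts or more and the symbol was no clone name, and up to 4 called members of each list (if none, the 2 of highest signal); other list members and any other gene were picked after their values were seen. Some genes under this rule are not reported here. The samples compared and the 40 lists (489 of 491 genes matched) were chosen with earlier results of these data known. Alternatives were another pseudocount, filter, scaling, moderation or set of samples, a replicate block and leaving out each library.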

Additional observations from a re-analysis of the deposited data

How the results depend on the processing

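The number of genes called stayed within 1.5 times the main 1049 under the other filter, scalings, moderation, sample sets and day weighting tried, and moved with a pseudocount 5 times larger, to 454 (233 higher and 221 lower). Without 1 library it was 1004 to 1242, and for the contrasts weighted to day 17 and of D19 against D13 in v1 it was 802 to 1045 and 833 to 1108. With the replicate block it was 1057 (509 higher and 548 lower), and the block changed none of the 94 named calls; the deviations of same-numbered samples correlated at 0.11 over 2 pairs, so the numbers were not taken to pair samples. Of the 94 named calls, 17 missed a threshold with the larger pseudocount, 16 weighted to day 17, 12 in the 4 samples alone and 9 to 13 without 1 library; the causes were not tested. Directions reversed only among genes not called. Hadha was at -0.09 with equal totals, -0.12 with quantile scaling, -0.07 weighted to day 17, and -0.04 to 0.04 without 1 library. Weighted to day 17, Cd74 was at -0.65, H2-Ab1 at -0.64 and Top2a at 0.02. Tnnt3 was at -0.03 with equal totals, and -0.21 to 0.24 without 1 library. Without 1 library, Slc4a1 ranged from -0.25 to 0.45, Col1a2 from -0.21 to 0.12 and Alas2 from -0.02 to 0.16. A group left with 1 sample took its spread from the other groups, and 2 samples a group limit every value.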

Other observations

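Genes of the amino acid stress response, which cells switch on when amino acids run short or proteins misfold, were looked up after their values were seen and are given as values. Trib3, a pseudokinase induced by this response, stood at 6.69 and 10.5 in D17 v0 and at 44.0 and 33.1 in D19 v1 (log2 change 2.06 ± 0.30). Cth, which makes cysteine, stood at 9.79 and 11.5 and at 45.2 and 44.9 (1.99 ± 0.12), and the cystine transporter gene Slc7a11 at 15.3 and 14.1 and at 40.6 and 41.3 (1.42 ± 0.20). Chac1 (1.23 ± 0.21), Asns (1.04 ± 0.18) and Phgdh (1.00 ± 0.11) were called too. Ddit3 (0.84 ± 0.15), Atf4 (0.65 ± 0.11), Atf5 (0.86 ± 0.14), Psat1 (0.73 ± 0.11) and Sesn2 (0.47 ± 0.16) did not reach the fold threshold. In the contrast weighted to day 17, Trib3 (1.78), Cth (1.56) and Slc7a11 (1.04) were called.

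Further smooth muscle genes, also chosen after their values were seen, included Actg2 at 71.3 and 124 in D17 v0 and at 12.2 and 23.9 in D19 v1 (-2.39 ± 0.48), and the regulator gene Myocd at 15.9 and 26.3 and at 8.28 and 9.88 (-1.10 ± 0.33). The ribosomal protein gene Rpl17 (1.99 ± 0.41) and Wdr89 (2.27 ± 0.41) differed between the D17 v0 replicates, at 16.9 and 55.6 and at 31.1 and 117, and reads shared with copies make both uncertain.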
